A study of Rattus norvegicus with 6 samples.

Results

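The hyaluronan genes described here are 10 genes that make, bind, organise or degrade hyaluronan: Has1, Has2, Cd44, Hmmr, Vcan, Tnfaip6, Hapln1, Hapln3, Hyal1 and Hyal2. Every probe that the platform annotation gives one of these symbols was taken. That gave 1 probe for each of 9 genes, so 9 of the 13336 genes named on the array, which holds 22517 probes. Tnfaip6 had no probe under its symbol in that annotation and was not analysed here. Of the 9 probes, 7 were bright enough to be tested, which means a signal over the array median in no fewer than 3 of the 6 arrays, while Hapln1 and Hyal1 lay below it on all 6.

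RNA came from granulation tissue, which fills a wound as it heals, grown into cellulose. The implants carried a coating of hydroxyapatite, the calcium phosphate of bone, and had been placed subcutaneously in 10 weeks old Sprague-Dawley rats. The RNA of each implant was hybridised to an Illumina bead array. Implants were removed at day 3 (72 hours, rats 4, 6 and 7) or at day 1 (24 hours, rats 1, 2 and 3), so n = 3 for each day. All 6 implants carried the coating, so the comparison is of 2 times and holds no uncoated implant and no unwounded skin. Signals below are log2 intensities, a change is day 3 minus day 1, and p-values measure the spread between these rats. Each array held the RNA of a whole implant, in which fewer cells of a type and less RNA per cell cannot be told apart.

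Hyaluronan is a long sugar chain of the extracellular matrix, spun out at the plasma membrane by the hyaluronan synthases from sugar nucleotides of the cytosol. It is abundant in early wounds, where it holds water and forms, with versican and the link proteins, a soft coat around cells. Cells bind it through receptors such as CD44, and hyaluronidases cut it into fragments that are taken up and degraded in lysosomes.

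In implants of day 3, the signals of both synthases, Has1 and Has2, and of Hmmr were higher than at day 1. Those of Cd44, the main hyaluronan receptor, and of Vcan, the proteoglycan that binds hyaluronan, were lower. The called changes lay between 1.76-fold and 2.81-fold. Thus 5 of the 7 tested genes were called by limma at an adjusted p under 0.05, 3 higher and 2 lower, where 31.9% of the 11591 tested probes were called (16.7% higher and 15.2% lower). Day 3 and day 1 arrays were fully apart for these 5 genes and for Hapln3, as they were for 49.4% of all tested probes (23.8% higher and 25.6% lower). Hapln3 was below the median on all 3 arrays of day 1 and was tested only through its day 3 values, which favours such a separation, so nothing is read from it. Without day 3 rat 6 the count of 5 fell to 1, the gene that stayed being Hmmr, and without day 3 rat 4 or day 3 rat 7 it was 3.

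**Figure D1:**
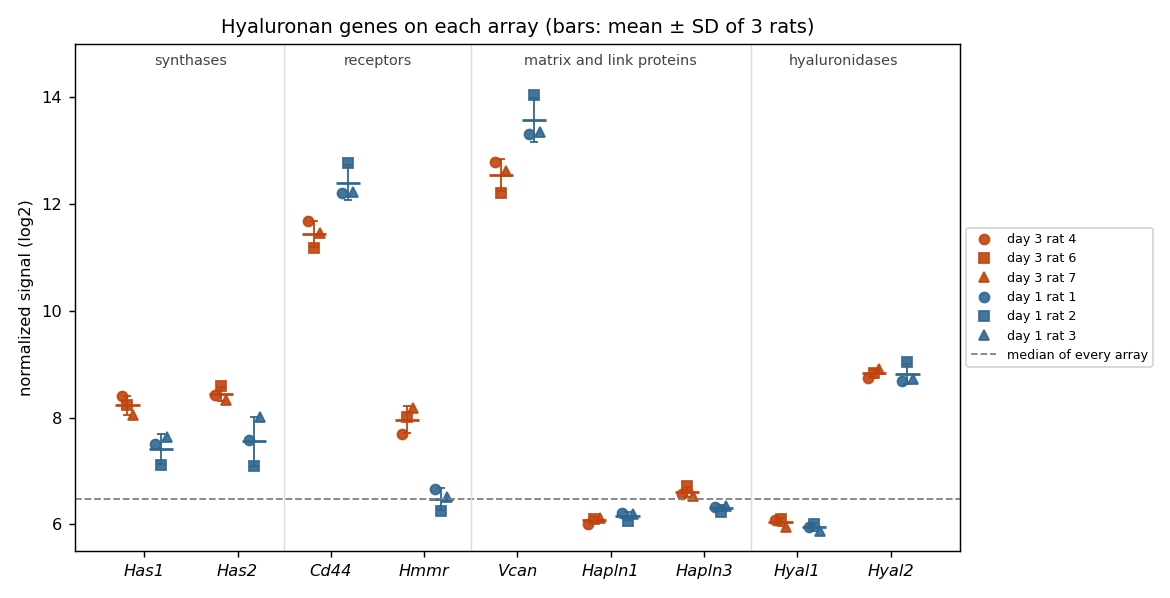
Log2 intensity of the 9 hyaluronan genes that have a probe, with 1 point for each rat, bars for the mean ± SD of each day, day 3 left of day 1 for every gene, and a dashed line at the array median. Points of Has1, Has2, Hmmr and Hapln3 lie higher at day 3 and those of Cd44 and Vcan lower, without overlap, while Hapln1, Hyal1 and Hyal2 overlap.

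Has1 encodes a hyaluronan synthase that is induced in inflamed and stressed cells. Its signal was 8.41, 8.23 and 8.04 in day 3 rats 4, 6 and 7, against 7.51, 7.10 and 7.63 in day 1 rats 1, 2 and 3. All 3 arrays of day 3 stood above all 3 of day 1. On the linear scale of the deposited values these were intensities of 279 to 355 at day 3 and 153 to 214 at day 1. The mean was 8.23 ± 0.18 at day 3 and 7.42 ± 0.28 at day 1 (SD, n = 3 each), a change of 0.81 with a standard error of 0.175, or 1.76-fold (limma, adjusted p = 0.0137). The change was larger than that of 89.7% of all tested probes. The call was lost without day 3 rat 4 (adjusted p = 0.0532) or without day 3 rat 6 (adjusted p = 0.0524).

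Has2 encodes the synthase that makes most hyaluronan in the embryo and in cultured fibroblasts, and its loss is lethal in mouse embryos. Its signal was 8.42, 8.59 and 8.33 in day 3 rats 4, 6 and 7, against 7.57, 7.09 and 8.01 in day 1 rats 1, 2 and 3. The days did not overlap, although day 1 rat 3 came close to the lowest array of day 3. The mean was 8.45 ± 0.13 at day 3 and 7.56 ± 0.46 at day 1, a change of 0.89 with a 95% interval of 0.35 to 1.43, or 1.85-fold (limma, adjusted p = 0.0254). The spread at day 1 was wider than at day 3, and the call needed nearly every rat. It was lost without day 3 rat 4 (adjusted p = 0.0699), rat 6 (0.0898) or rat 7 (0.0649), and without day 1 rat 1 (0.0754).

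The changes of both synthases were close to each other. The within-array difference, Has1 minus Has2, moved by -0.08 between the days (exact permutation test, two-sided, p = 0.8; adjusted p = 0.8 over 4 pairs of genes). The smallest p that 3 rats against 3 allow is 0.1, before adjustment. Of the 4 pairs, those of the link proteins and of the hyaluronidases hold a gene below the array median on all 6 arrays, and no difference is given for them. Has3, the third synthase of mammals, was below the array median on all 6 arrays, with 6.03 ± 0.09 at day 3 and 6.15 ± 0.06 at day 1, and was not tested.

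Cd44 is a transmembrane glycoprotein on leukocytes, fibroblasts and many epithelia that binds hyaluronan with its outer domain and the actin cytoskeleton with its tail. Its signal was 11.68, 11.19 and 11.45 in day 3 rats 4, 6 and 7, against 12.21, 12.78 and 12.22 in day 1 rats 1, 2 and 3. Every array of day 3 was below every array of day 1. Deposited intensities ran from 2345 to 3299 at day 3 and from 4741 to 7029 at day 1. The mean was 11.44 ± 0.25 at day 3 and 12.40 ± 0.33 at day 1, a change of -0.96 with a 95% interval of -1.44 to -0.48, or 1.95-fold lower (limma, adjusted p = 0.0129). Without day 3 rat 6, the lowest of all, the change was -0.83 and the adjusted p was 0.0519. Cd44 RNA is spliced into several forms, which 1 probe cannot separate.

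Hmmr encodes RHAMM, a hyaluronan-binding protein of the cell surface that inside the cell sits on the mitotic spindle and is made mainly in dividing cells. Its signal was 7.69, 8.01 and 8.19 in day 3 rats 4, 6 and 7, against 6.65, 6.25 and 6.51 in day 1 rats 1, 2 and 3. Even the lowest array of day 3 was far above the highest of day 1, and day 1 rat 2 lay below its array's median of 6.47. The mean was 7.96 ± 0.25 at day 3 and 6.47 ± 0.21 at day 1, a change of 1.49 with a standard error of 0.172, or 2.81-fold (limma, adjusted p = 0.00182). Hmmr was the only hyaluronan gene called with every single rat left out, with adjusted p at most 0.0125, and the only one called at an adjusted p under 0.01. Its change exceeded that of 96.2% of tested probes.

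The receptors Cd44 and Hmmr thus differed in direction. The within-array difference, Cd44 minus Hmmr, averaged 3.48 ± 0.45 at day 3 and 5.93 ± 0.52 at day 1, a shift of -2.45. The exact permutation test gave p = 0.1, the smallest the design allows, and an adjusted p of 0.2 over the 4 pairs. The RefSeq gene table gives RHAMM as a synonym of both genes, so the probes were told apart by symbol.

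Vcan encodes versican, a large chondroitin sulfate proteoglycan whose head domain binds hyaluronan. It is made by fibroblasts and smooth muscle cells, and in humans also by blood monocytes. Its signal was 12.79, 12.21 and 12.62 in day 3 rats 4, 6 and 7, against 13.32, 14.04 and 13.36 in day 1 rats 1, 2 and 3. The days did not overlap, and deposited intensities were 4748 to 7108 at day 3 and 10237 to 16908 at day 1. The mean was 12.54 ± 0.30 at day 3 and 13.57 ± 0.41 at day 1, a change of -1.03 with a 95% interval of -1.60 to -0.46, or 2.05-fold lower (limma, adjusted p = 0.0182). The call was lost without day 3 rat 6 (adjusted p = 0.0652) or day 3 rat 7 (adjusted p = 0.056). Splicing changes how many sugar chains versican carries, and the probe cannot separate those forms.

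Hapln1 and Hapln3 encode link proteins, which clamp proteoglycans such as versican onto hyaluronan. Hapln1, the link protein of cartilage, had 6.01, 6.10 and 6.12 in day 3 rats 4, 6 and 7, against 6.20, 6.07 and 6.19 in day 1 rats 1, 2 and 3. All 6 values were below the array median, so no level was read from it. The gene lies beside Vcan on chromosome 2 of the rat assembly GRCr8, with 0 protein-coding genes between them. Hapln3 had 6.56, 6.71 and 6.53 in day 3 rats 4, 6 and 7, against 6.32, 6.23 and 6.34 in day 1 rats 1, 2 and 3. The days did not overlap, but all 3 arrays of day 1 were below the median, so the probe was tested only through its day 3 values. Its change of 0.30, with a 95% interval of 0.05 to 0.56, did not pass the test (limma, adjusted p = 0.0735). Its day 3 mean lay 1.09-fold above the array median, a point estimate without an interval.

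Hyal1 and Hyal2 encode hyaluronidases, Hyal1 the enzyme of lysosomes and Hyal2 one anchored to the cell surface that cuts long chains first. They are neighbours on chromosome 8 of GRCr8. Hyal2 had 8.74, 8.84 and 8.91 in day 3 rats 4, 6 and 7, against 8.68, 9.03 and 8.73 in day 1 rats 1, 2 and 3. The days overlapped, with all of day 3 inside the range of day 1. The change was 0.02 with a 95% interval of -0.30 to 0.33 (limma, adjusted p = 0.938), and its sign turned in 4 alternatives. Hyal1 had 6.08, 6.09 and 5.95 in day 3 rats 4, 6 and 7, against 5.95, 6.01 and 5.87 in day 1 rats 1, 2 and 3, below the median throughout.

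**Figure D2:**
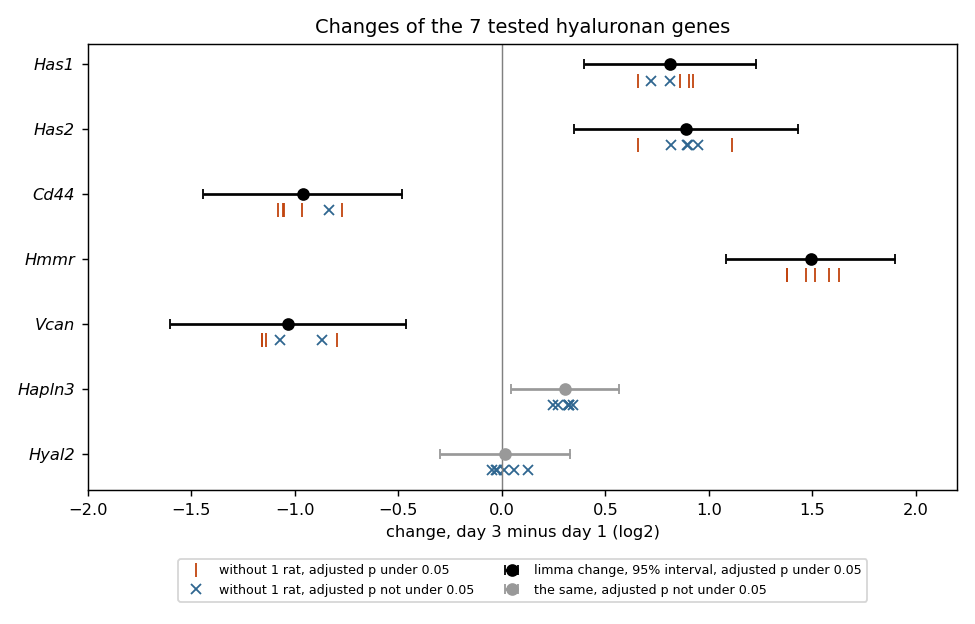
Change of the 7 tested hyaluronan genes on the log2 scale, day 3 minus day 1, with limma's 95% interval and, under each, the change with 1 rat left out. Intervals of Hyal2 span 0, and Hmmr is the gene whose 6 leave-one-out fits all stay under an adjusted p of 0.05.

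No single order of the rats was common to these genes, but day 1 rat 2 stood at an end of the order in several. Day 1 rat 2 was lowest of all 6 rats in Has1, Has2 and Hmmr and highest in Cd44, Vcan and Hyal2. Cd44 and Vcan put all 6 arrays in the same order, from day 3 rat 6, the lowest, through rats 7 and 4 to day 1 rats 1, 3 and 2. In both genes, day 1 rats 1 and 3 were nearly tied. Has2 and Hapln3 also shared an order with each other, but Hapln3 lay below the median on every array of day 1, so nothing is read from that. Without day 1 rat 2, the changes were smaller, 0.66 for Has1, 0.66 for Has2, -0.77 for Cd44 and -0.80 for Vcan, and all 4 were still called.

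Markers of cell types moved between the days as well, where 16.7% of all tested probes were called higher and 15.2% lower. The summed linear signal of 9 leukocyte markers was 38704 to 46993 at day 3 and 72076 to 85464 at day 1, with 7 of 9 tested markers called lower and 0 higher. It ordered the 6 arrays as Cd44 and Vcan did, but day 1 rats 1 and 3 were nearly tied in it (72076 and 72250). Ptprc (CD45), the first of these markers, changed by -2.19 and Cd53 by -1.86 (limma, adjusted p = 0.000723 and 0.022). Neither Ptprc nor Cd53 kept that order of arrays. Lcp1, the brightest of these markers, was not called (limma, adjusted p = 0.0969). The sum of 16 neutrophil markers was 25322 to 34295 at day 3 and 46615 to 50125 at day 1, with 10 of 13 tested markers lower and 1 higher. The higher one, Lcn2, changed by 1.37 (limma, adjusted p = 0.023) and was the brightest of these markers at day 3. The median change of the tested neutrophil markers was -1.97. Elane (neutrophil elastase) changed by -2.52 (adjusted p = 0.00382) and Mpo by 0.14 (adjusted p = 0.547), while Ltf, S100a9 and Ngp were below the median on all arrays. The part of these cells in the results for Cd44 and Vcan was not tested.

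Macrophage markers stood the other way, with a sum over 10 genes of 41239 to 64372 at day 3 and 23094 to 31716 at day 1, and 6 of 9 tested markers higher and 1 lower. Marco was below the median on all arrays. Cd163 changed by 1.48 (adjusted p = 0.0477) and Mrc1 by 1.02 (adjusted p = 0.0691), and the 1 lower marker was Cd14, a monocyte receptor named after its values were seen, with -1.78 (adjusted p = 0.00187).

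Fibroblast markers, made by the cells that lay down granulation tissue, summed to 133727 to 152737 at day 3 and 17490 to 56369 at day 1, and all 10 tested were higher. Col1a1 changed by 5.15 and Col1a2 by 1.48 (adjusted p = 0.000341 and 0.0179). The signal of Col1a2 was 15.04 to 15.08 at day 3, so bright that its change may be understated. Endothelial markers gave 11218 to 13611 at day 3 and 3354 to 6665 at day 1, with 6 of 7 tested higher. Cdh5 was below the median throughout, and Vwf (von Willebrand factor) changed by 2.06 (adjusted p = 0.00306). The endothelial sum put the arrays in the order of Has2, but Vwf and most other tested endothelial markers did not. The fibroblast sum had the order of neither Has1 nor Has2. In both sums day 1 rat 2 was lowest. The part of these cells in the higher signals of Has1 and Has2 was not tested.

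The sum of 9 markers of dividing cells was 7985 to 9439 at day 3 and 1698 to 2553 at day 1, with all 9 higher, among them Ccna2 (2.26) and Aurkb (1.70). It was higher at day 3, as Hmmr was, but within each day it ordered the rats otherwise than Hmmr did. Its part in the result for Hmmr was not tested. Skeletal muscle markers were high on 1 array of each day, with a sum of 28181 in day 3 rat 6 and 36742 in day 1 rat 3, where the lowest sums were 1614 at day 3 and 2459 at day 1. The muscle genes Acta1 and Ckm were not called (adjusted p = 0.903 and 0.984). Of 11 tested muscle markers 0 were higher and 1, Tnnc1, was lower, with a change of -1.20 (limma, adjusted p = 0.0132). Without those 2 arrays all 5 calls remained, with changes of 0.92 for Has1, 1.04 for Has2, -0.92 for Cd44, 1.49 for Hmmr and -0.97 for Vcan. Of other cell types, 1 of 4 tested adipocyte markers was higher, with Adipoq not called (adjusted p = 0.812) and Lep below the median throughout. Of 4 mast cell markers 0 were called by limma, and 1, Tpsab1, had an unadjusted p under 0.05 (0.0176), with Cpa3 at an adjusted p of 0.304 (limma) and Kit below the median throughout. Of 7 lymphocyte markers 1 was higher and 1, Cd3d, lower, with a change of -0.78 (adjusted p = 0.00787), while Cd3e was not called (0.627). The 3 epidermis markers, Krt14 and Krt10 among them, were too dim to be tested.

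**Figure D3:**
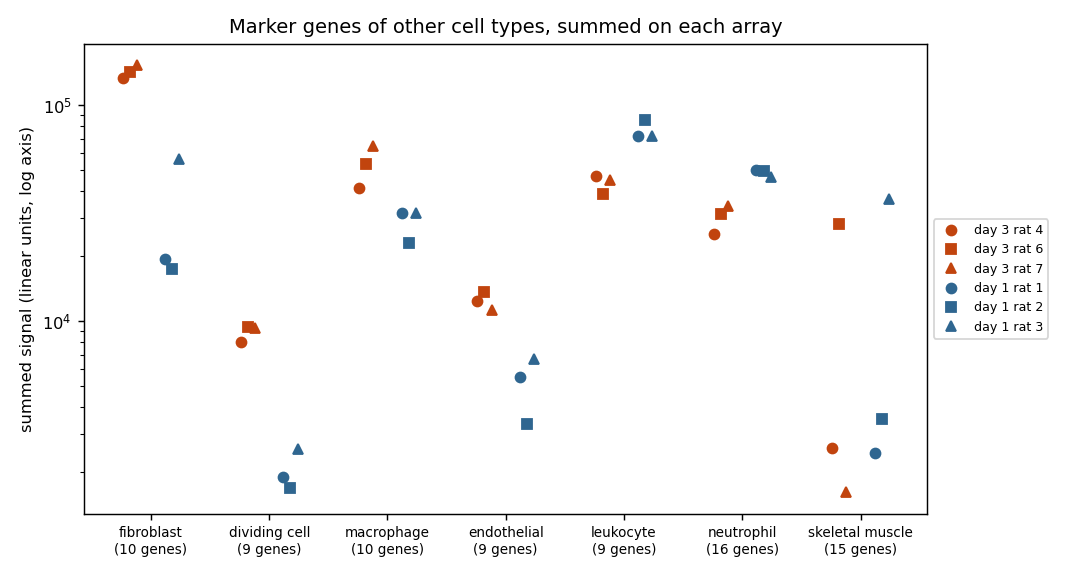
Summed linear intensity of 7 marker lists on a log axis, 1 point for each rat, with the lists side by side and day 3 left of day 1 in each. Leukocyte and neutrophil sums are lower at day 3, macrophage, fibroblast, endothelial and dividing cell sums are higher, and skeletal muscle overlaps, with 1 high array in each day.

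Other genes came from 9 lists, on hyaluronan and versican metabolism, other binding proteins, and the partners of Cd44 and of Hmmr at the spindle. Of the 105 genes listed, 82 had a probe and 64 were tested. Of the 64, 22 were called higher, 12 lower and 30 were not called, where 31.9% of all tested probes were called (16.7% higher and 15.2% lower). These shares also stand beside the counts of each list below. The spindle partners of Hmmr gave 7 of the 22 higher calls. The median change of the 64 was 0.27, against -0.05 over all tested probes, whose middle 50% lay between -0.34 and 0.32.

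**Figure D4:**
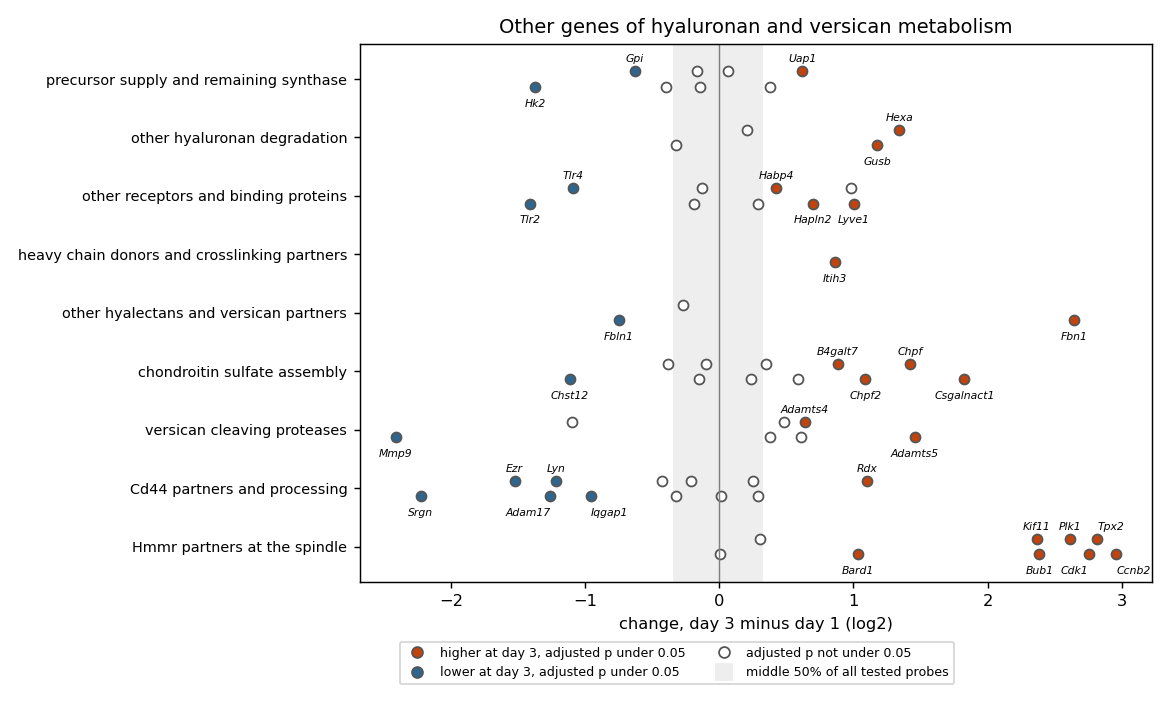
Change of the 64 tested genes of the hyaluronan, versican, Cd44 partner and spindle lists in log2, day 3 minus day 1. Each list has 1 row of points, spread vertically only to be told apart, with called genes filled and named. Ccnb2, Tpx2 and Cdk1 of the spindle list lie farthest to the right. The 5 called lower among the Cd44 partners lie to the left of the grey band that holds the middle 50% of all tested probes.

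Sugar nucleotides for hyaluronan come from glucose, and of the 8 tested genes of this supply 1 was higher, 2 lower and 5 not called, with a median change of -0.16. Hk2, a hexokinase of glycolytic cells, averaged 8.11 ± 0.39 at day 3 and 9.48 ± 0.30 at day 1, a change of -1.37 (limma, adjusted p = 0.00639). Gpi, which converts glucose 6-phosphate to fructose 6-phosphate, changed by -0.63 (adjusted p = 0.0125), and its call was lost without day 3 rat 6 (0.0519) or rat 7 (0.0558). Uap1, which makes UDP-N-acetylglucosamine, one substrate of the synthases, changed by 0.62 (adjusted p = 0.0411). That call held only without day 1 rat 3 and was lost with any other rat left out, the adjusted p then being 0.0504 to 0.136. Ugdh, which makes the other substrate, UDP-glucuronate, was not called, with 12.59 ± 0.12 at day 3 and 12.20 ± 0.43 at day 1 (adjusted p = 0.221), but passed without day 1 rat 3 (0.00885).

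Lysosomal glycosidases remove sugars from the ends of hyaluronan fragments, and of 4 tested genes of degradation outside Hyal1 and Hyal2, 2 were higher and 2 not called, with a median change of 0.69. Hexa, a subunit of beta-hexosaminidase, averaged 11.16 ± 0.14 at day 3 and 9.82 ± 0.31 at day 1, a change of 1.34 (limma, adjusted p = 0.00273). Gusb, beta-glucuronidase, changed by 1.17 (adjusted p = 0.00367). Both enzymes also act on other substrates, and both stood beside the higher macrophage sum. Hyal3, of the hyaluronidase family, and Cemip2, a proposed hyaluronidase of the cell surface, had changes of -0.32 and 0.21 that did not pass (adjusted p = 0.292 and 0.351).

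Of 9 other receptors and binding proteins, 3 were higher, 2 lower and 4 not called, with a median change of 0.29. Tlr2 and Tlr4, innate immune receptors through which hyaluronan fragments have been reported to signal, changed by -1.41 and -1.09 (limma, adjusted p = 0.00732 and 0.0136), beside the lower leukocyte sum. Tlr4 lost its call without day 3 rat 6 (0.0566) or day 1 rat 1 (0.055). Lyve1, a hyaluronan receptor of lymphatic endothelium and some tissue macrophages, averaged 10.71 ± 0.53 at day 3 and 9.71 ± 0.27 at day 1, a change of 1.00 (adjusted p = 0.0328). Its call was lost without day 3 rat 4 (0.0734), day 3 rat 7 (0.0699), day 1 rat 1 (0.107) or day 1 rat 2 (0.0573). Hapln2, a link protein known from the brain, changed by 0.70 (adjusted p = 0.0107) at a dim signal, with 2 of 3 arrays of day 1 below the median.

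Tnfaip6 protein moves heavy chains of inter-alpha-inhibitor onto hyaluronan, and of 8 listed donors and partners 4 had a probe and 1 was tested. This was Itih3, a heavy chain known from liver, with 7.86 ± 0.48 at day 3 and 7.00 ± 0.24 at day 1, a change of 0.86 (limma, adjusted p = 0.0398). Leaving out any rat but day 1 rat 3 took the adjusted p to 0.0573 to 0.113.

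Of 3 tested partners of versican, 1 was higher, 1 lower and 1 not called, with a median change of -0.27. Fbn1, fibrillin-1 of microfibrils, averaged 10.07 ± 0.31 at day 3 and 7.43 ± 0.58 at day 1, a change of 2.64 (limma, adjusted p = 0.00179). Fbln1, fibulin-1, changed by -0.75 (adjusted p = 0.00917), in the direction of Vcan. Fn1, fibronectin, did not pass, with -0.27 (adjusted p = 0.0973).

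Versican carries chondroitin sulfate chains, which other proteoglycans carry too. Of 11 tested genes that build these chains, 4 were higher, 1 lower and 6 not called, with a median change of 0.35. Csgalnact1, which adds the first N-acetylgalactosamine, averaged 9.99 ± 0.13 at day 3 and 8.16 ± 0.44 at day 1, a change of 1.83 (limma, adjusted p = 0.00212). Chpf and Chpf2, the chain polymerising factors, changed by 1.42 and 1.09 (adjusted p = 0.00102 and 0.00348). Chst12, a chondroitin 4-sulfotransferase, changed by -1.11 (adjusted p = 0.00856). The 3 named rises stood opposite to the lower signal of Vcan itself, and beside the higher fibroblast sum.

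Proteases that cut versican gave 2 higher, 1 lower and 4 not called among 7 tested, with a median change of 0.48. Adamts5 and Adamts4, which cleave versican and aggrecan, changed by 1.46 and 0.64 (limma, adjusted p = 0.0132 and 0.00768). Adamts5 lost its call without day 3 rat 6 (0.054) or rat 7 (0.0543). Mmp9, a gelatinase stored in neutrophils, averaged 10.27 ± 0.28 at day 3 and 12.68 ± 0.79 at day 1, a change of -2.41 (adjusted p = 0.00475), and is itself one of the neutrophil markers.

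Of 12 tested partners of Cd44, 1 was higher, 5 lower and 6 not called, with a median change of -0.37. Srgn, serglycin, a proteoglycan of leukocyte granules that binds CD44, averaged 7.65 ± 0.15 at day 3 and 9.88 ± 0.63 at day 1, a change of -2.22 (limma, adjusted p = 0.00295). Ezr, ezrin, which ties the tail of CD44 to actin, changed by -1.53 (adjusted p = 0.00337). Adam17, a sheddase, and Lyn, a Src family kinase of leukocytes, changed by -1.26 and -1.22 (adjusted p = 0.00519 and 0.00223). The related linker Rdx, radixin, named after its values were seen, went the other way with 1.10 (adjusted p = 0.00941). Spp1, osteopontin, a ligand of CD44, had a change of 0.015 and was not called (adjusted p = 0.934). Its signal was 14.84 to 15.12 on every array, so bright that a change may be understated.

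Of 9 tested partners of Hmmr at the spindle, 7 were higher, 0 lower and 2 not called, with a median change of 2.39. Ccnb2, a mitotic cyclin, averaged 12.03 ± 0.17 at day 3 and 9.07 ± 0.33 at day 1, a change of 2.96 (limma, adjusted p = 0.00033). Tpx2, a spindle assembly factor, Cdk1, the mitotic kinase, and Plk1, polo-like kinase, changed by 2.82, 2.75 and 2.62 (adjusted p = 0.00106, 0.00214 and 0.000284). Aurka, the kinase that Tpx2 activates, did not pass, with 8.16 ± 0.19 at day 3 and 8.16 ± 0.40 at day 1 (adjusted p = 0.992). Ccnb2, Tpx2, Cdk1 and Plk1 are also markers of dividing cells. The sum of the dividing cell list, which holds other genes, was higher with them.

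Promoters of 4 of the called genes are shown because Hmmr moved with the spindle genes and Cd44 moved with Vcan. Each sequence runs 5′ to 3′ from 250 bases before to 50 bases after a RefSeq transcript start on assembly GRCr8, on the minus strand of its chromosome for all 4 genes. Has2 has no entry in the table used. Capitals mark matches on either strand. The motifs searched were TTTGAA, the letters of the cell cycle homology region, CCAAT, the box bound by NF-Y, GGGCGG, the GC box bound by Sp1, TATAAA, the TATA box, and TGANTCA, the site bound by AP-1. No matches overlapped in these windows.
Hmmr (chr10:25665166-25665465): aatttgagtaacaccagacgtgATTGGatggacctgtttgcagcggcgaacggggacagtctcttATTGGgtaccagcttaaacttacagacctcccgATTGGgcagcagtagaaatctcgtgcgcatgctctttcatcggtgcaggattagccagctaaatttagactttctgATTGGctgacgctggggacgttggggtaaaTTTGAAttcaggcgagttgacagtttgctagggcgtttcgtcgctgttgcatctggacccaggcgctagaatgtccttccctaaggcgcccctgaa
Cd44 (chr3:109699375-109699674): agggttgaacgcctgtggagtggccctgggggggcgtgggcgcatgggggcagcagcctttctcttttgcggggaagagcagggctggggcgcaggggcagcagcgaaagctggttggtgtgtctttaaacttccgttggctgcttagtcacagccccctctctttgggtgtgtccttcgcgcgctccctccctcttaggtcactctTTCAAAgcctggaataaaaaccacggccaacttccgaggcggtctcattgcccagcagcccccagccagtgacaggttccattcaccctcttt
Vcan (chr2:22595808-22596107): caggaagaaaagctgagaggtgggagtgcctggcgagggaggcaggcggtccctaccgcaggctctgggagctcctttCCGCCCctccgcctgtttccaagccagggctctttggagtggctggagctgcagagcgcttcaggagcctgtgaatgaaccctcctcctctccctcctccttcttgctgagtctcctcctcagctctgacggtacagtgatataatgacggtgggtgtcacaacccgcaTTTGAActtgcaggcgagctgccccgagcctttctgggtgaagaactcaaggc
Has1 (chr1:67378395-67378694): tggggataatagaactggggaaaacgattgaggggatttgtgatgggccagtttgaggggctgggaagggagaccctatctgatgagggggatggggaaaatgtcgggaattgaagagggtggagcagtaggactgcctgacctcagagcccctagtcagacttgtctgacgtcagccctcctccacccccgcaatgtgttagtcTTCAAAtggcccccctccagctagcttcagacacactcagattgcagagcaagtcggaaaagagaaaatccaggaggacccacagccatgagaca
Hmmr held CCAAT 4 times, each as ATTGG on the strand shown, and TTTGAA at -46 to -41 from the start. CCAAT was present in 37.5% and TTTGAA in 18.3% of 33469 promoters of the same length, both in 7.41%, and 4 or more CCAAT in 0.675%. Among the 10 spindle partners with an entry, 7 held CCAAT, 4 held TTTGAA (Plk1, Bard1, Cdk1 and Ccnb2), and 0 held 4 or more CCAAT. Cd44 and Has1 each held TTTGAA in the reverse direction, at -43 to -38 and at -45 to -40. Vcan held TTTGAA across its start and GGGCGG in the reverse direction, which 33.1% of promoters hold. The TATA box letters matched none of these 4 windows and are in 14.2% of all promoters, and the AP-1 letters matched none and are in 7.33%. A match is a run of letters, and no binding was measured.

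Genes whose pattern over the 6 arrays was most like each member were found among 8351 other named genes, by the mean absolute difference of log2 values centred on each probe's mean. The likeness includes the difference between the days, so it mostly picks genes of the same change. For Cd44 the 3 nearest were Tnks (0.049), Vcan (0.055) and Agmat (0.057), and for Vcan they were Cd44 (0.055), Ripk2 (0.065), a kinase of innate immune signalling, and Ptpn7 (0.071), a phosphatase of blood cells. Cd44 and Vcan were thus each among the other's nearest genes. For Hmmr they were Diaph3 (0.092), a formin, Ctla2a (0.092) and Kif2c (0.10), a mitotic kinesin.

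The nearest to Has2 was Mcm3 (0.030), a subunit of the replicative helicase, followed by Pmfbp1 (0.039) and Abhd17c (0.040). For Has1 they were Plekha1 (0.063), Ubxn11 (0.073) and Nr2f2 (0.079), a nuclear receptor. Has1 and Has2 were not among each other's 3. For Hapln3 they were Pla2g2d (0.026), Tmem144 (0.030) and Snx33 (0.033), and for Hyal2 Mrm2 (0.026), Siah1 (0.029) and Ipp (0.033), where small changes leave little pattern to match.

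**Figure D5:**
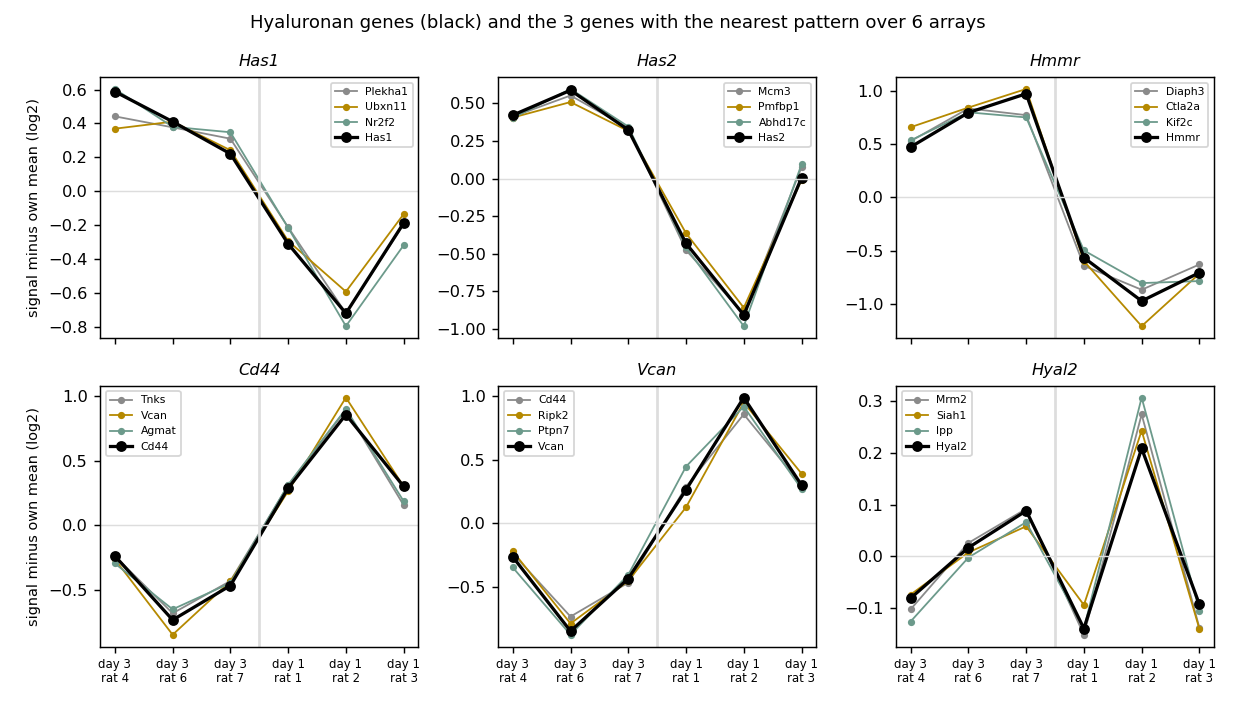
Log2 intensity centred on each probe's mean for 6 tested hyaluronan genes (black; Hapln3 is not drawn) and the 3 named genes most like each, over the 6 arrays, day 3 rats left and day 1 rats right. Lines of Cd44 and Vcan nearly coincide, as do those of Has2 and Mcm3.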

How the data were processed

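Total RNA of 6 implants, 3 of each day, was amplified from 100 ng, labelled with biotin and hybridised to Illumina bead arrays, per the labels' protocols. The deposited values are linear intensity values, 1 for each probe and array. They were already quantile normalized: the sorted columns differ by at most 0.535 units. The submitters' processing notes name limma. A second table, of values before normalization, has 12 columns of per-sample values whose headers match no label, and it was not used here, nor was any detection p-value.

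From these deposited intensities the background was removed by normexp with an offset of 50 (limma 3.58.1, R 4.3.3), and values were put on the log2 scale. The offset makes fold changes of dim probes too small. A probe entered the tests when its signal exceeded the array median (6.47) on 3 or more of the 6 arrays, which 11591 did. The test was limma's moderated one (lmFit, then eBayes), two-sided, adjusted by Benjamini-Hochberg across those probes, with 0.05 as the threshold. Where 1 day's arrays all lie under the median, the fold printed is that of the other day's mean against the median, a point estimate without an interval. Arrays give no read depth, and their number limits the precision. The fit was tested on simulated data.

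Probes were named by the platform annotation, with 1 symbol for 13787 probes and none for 8730. A gene with several kept probes is represented by the brightest. All probes of the 10 hyaluronan genes are named, and from each pathway list up to 4 called genes with the largest change, from each marker list the first 2 measured genes, and for each tested hyaluronan gene the 3 most alike. Names beyond that (Has3, Ugdh, Ugp2, Gfpt1, Hyal3, Cemip2, Fn1, Rdx, Spp1, Aurka, Bard1, Cd14, Tpsab1, Ltf, S100a9, Ngp, Marco, Lcn2, Lcp1, Tnnc1) were chosen after their values were seen. The members and lists were chosen with earlier results of these data known. The rats of the 2 days carry different numbers and were not paired. Promoter sequences are from RefSeq on GRCr8, where 8 of the 10 genes matched by symbol. No coordinates of probes were used.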

Additional observations from a re-analysis of the deposited data

How the results depend on the processing

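No paired analysis was possible because the rats of the 2 days carry different numbers. The total of 3694 called probes became 6123 with array weights and 1593 at an adjusted p under 0.01, and 2016 to 4902 with 1 rat left out. Of the hyaluronan genes, 5 were called, against 1 at an adjusted p under 0.01 (Hmmr) and 1 to 5 with 1 rat left out. Hapln3 passed with offset 16 (adjusted p = 0.0386), array weights (0.0244) and an intensity trend with robust fitting (0.0177). The 34 called pathway genes became 28 to 40 with 1 rat left out, and 27 of them passed the threshold of 0.05 under every alternative that tested them, while 26 pathway genes were called at an adjusted p under 0.01. Without the filter, Uap1, Lyve1 and Itih3 lost their calls (adjusted p = 0.0581, 0.0542 and 0.0647). Over the alternatives that keep the threshold of 0.05, 80 of 96 values of the members kept direction and call, 9 lost the call, 3 gained it and 4 turned sign, all 4 of Hyal2. Genes with changes near 0 turned sign: Hyal2 (-0.050 to 0.12 with 1 rat left out, -0.031 without the 2 arrays high in muscle markers), Aurka (-0.16 to 0.22, and -0.25 without those 2), Spp1 (-0.066 to 0.073, and -0.15 with cyclic loess), Ugp2 (-0.30 to 0.030) and Gfpt1 (-0.038 without those 2). With 1 rat left out, Has1 minus Has2 was -0.19 to -0.002 and Cd44 minus Hmmr -2.71 to -2.15. Among the fits with 1 rat left out, the highest counts of probes and pathway genes came without day 1 rat 3. The cause of these differences was not tested. The planned pair of Vcan and Tnfaip6 was not run, as Tnfaip6 has no probe. Signals below the median (Hapln1, Hyal1, and Hapln3 at day 1) limit what the arrays show.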
